A study of Mus musculus with 32 samples.

Results

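The interleukin 6 family is a group of cytokines that all signal through the receptor chain encoded by Il6st, paired with a chain that recognises each ligand. Binding activates JAK kinases and the transcription factor STAT3, and STAT3 switches on Socs3, whose product blocks the same receptor. In gum and jaw bone these cytokines are known as signals of inflammation and of the stromal cells that control osteoclasts, the cells that resorb bone. 10 of the 55359 genes in each table were taken by name. They were the ligands Il6, Lif, Il11 and Osm, the receptor chains Il6ra, Il6st, Osmr, Lifr and Il11ra1, and Socs3. All 10 passed the filter on low counts in bone and in gingiva, although Il6 in gingiva reached 10 estimated counts in the Li and LiTra libraries alone.

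Bone and gingiva were profiled by messenger RNA sequencing in wild-type C57BL/6J male mice treated at 9 weeks of age. LiTra teeth carried both a silk ligature, a thread tied around the left upper second molar, and a composite resin build-up on its chewing surface, the model of traumatic occlusion (excess biting load). Li teeth carried the ligature alone, Tra teeth the resin alone, and Co mice were untreated. Each tissue had 16 libraries, 4 per group. The time between treatment and sampling, and whether equal library numbers mark 1 animal, are not given in the labels used here, so p-values measure the spread between libraries, which may be technical.

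The bone libraries held between 38163979 and 70793037 estimated counts, and the gingiva libraries between 36913075 and 50740393. Of 8 osteoblast markers all 8 were higher in Co bone than in Co gingiva, and of 8 epithelial markers 7 were lower (edgeR, adjusted p under 0.05). Of all 22559 genes tested there, 27.2% were called higher in bone and 53.6% either way. Bone libraries LiTra 1, Tra 3 and Co 3 stood apart. In these, 10 genes took 53.6%, 62.9% and 51.1% of the counts, and no other bone library was above 29.3%. A list of 8 nasal gland genes took 50.04% of the counts in LiTra 1, 22.7% in Tra 3 and 46.9% in Co 3, but also 23.99% in Li 2 and 14.7% in Co 4. Levels are in CPM, taken against each library total times its TMM factor, so that the CPM of different libraries do not have the same sum, and differences are log2 fold changes ± SE from edgeR's quasi-likelihood test, with a gene called where its p, adjusted by Benjamini-Hochberg over all genes tested, was under 0.05.

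With a ligature, 4 of the 10 genes rose in bone and 5 in gingiva, and with ligature and resin together 5 rose in bone and 7 in gingiva. By edgeR no member was called lower in these comparisons, while DESeq2 and limma-voom called Il6ra lower in LiTra bone against Co. Il6, Osmr and Socs3 were the members called in all 4 comparisons of a ligated group with Co. In bone Li against Co the risers were Il6, Lif, Osmr and Socs3. Among all 21205 genes tested there, 2.66% were called higher and 3.51% either way. LiTra against Co added Il11 in bone, where 8.29% of all genes were called higher and 16.9% either way. In gingiva Li against Co the risers were Il6, Il11, Il6st, Osmr and Socs3, against 5.19% of 20143 genes called higher and 7.49% either way. LiTra against Co added Lif and Osm in gingiva, where 11.4% of all genes were called higher and 22.9% either way. These comparisons share their Co libraries. Both gingiva counts include Il6, which passed the filter on low counts there only through the Li and LiTra libraries where it was high.

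Resin alone called 0 of the 10 members in either tissue by edgeR, DESeq2 or limma-voom, where edgeR called 0% of all genes. At an unadjusted p under 0.05 it was 1 member in bone, Osmr, and 0 in gingiva, beside 9.54% and 6.57% of all genes. Against Tra, LiTra was higher for 6 members in bone (Il6, Lif, Il11, Osm, Osmr and Socs3), where 3.07% of all genes were called higher and 5.56% either way. In gingiva LiTra was higher than Tra for 4 members (Il6, Lif, Osmr and Socs3), where 9.36% of genes were called higher and 18.8% either way. That count too includes Il6, kept by the filter through its ligated libraries. Without bone LiTra 1, Tra 3 and Co 3, the bone counts were 4 for Li against Co and 5 for LiTra against Tra, where 8.22% and 10.4% of all genes were then called. For LiTra against Co 5 members were higher without these libraries and 1, Il6ra, was lower, with 22.4% of all genes called. With library totals as the only scaling, Il6 was the 1 member called in each of the 3 bone comparisons of ligated with unligated groups. The bone calls of Lif, Il11, Osm, Osmr and Socs3 were lost. The Li minus Co difference was then 1.62 for Lif (1.48 with TMM) and 1.72 for Socs3 (1.62 with TMM). For Osm, LiTra minus Tra was 1.34 (1.46 with TMM). None of the other alternative settings lost the bone calls of Lif, Il11, Osmr or Socs3. As few as 5 or 12 of all genes were called in these comparisons over the alternative settings. Whether the lost calls follow from that drop among all genes was not tested.

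**Figure D1:**
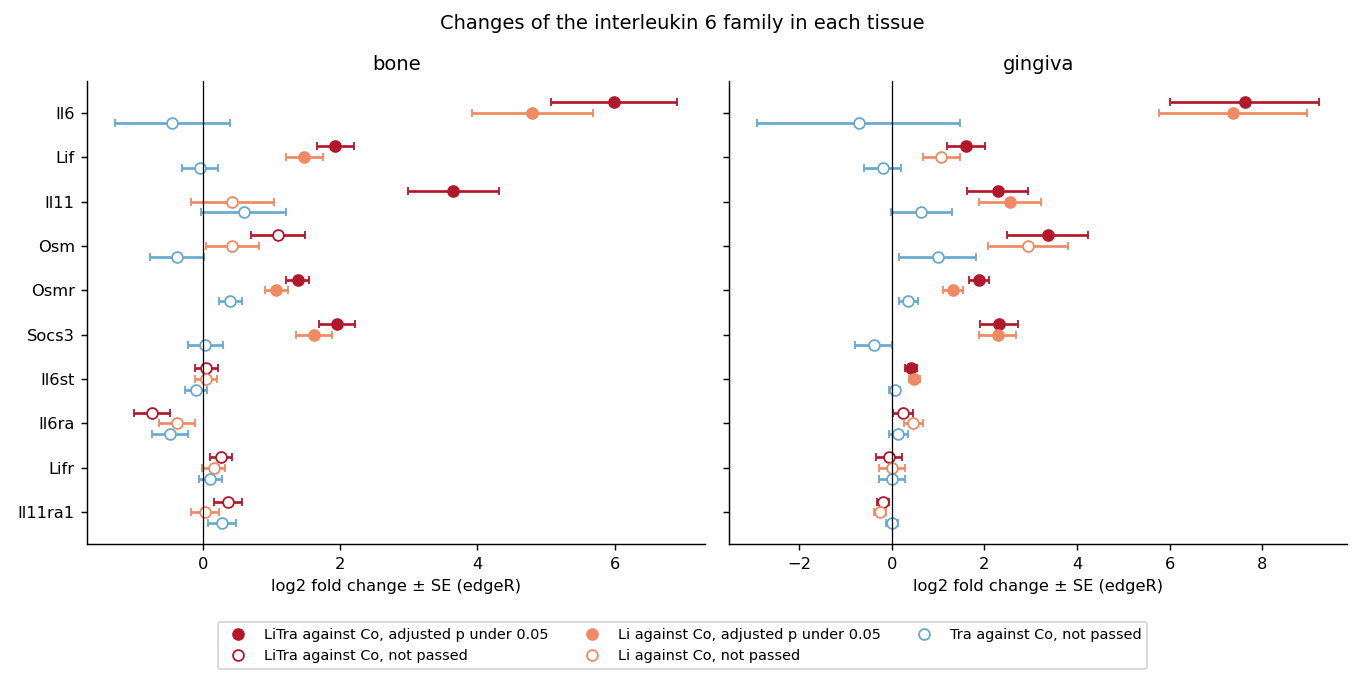
Log2 fold changes (edgeR, points) with their SE (bars) of the 10 genes in bone and gingiva for LiTra, Li and Tra, each against the same 4 Co libraries; filled points have an adjusted p under 0.05. Il6 had the largest changes, Osmr and Socs3 were called in both ligated groups of both tissues, and Tra gave no filled point.

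Starting sequences of the genes were compared because several members moved together. The windows run from 250 bases before to 50 bases after the annotated start, from RefSeq on GRCm38.p6, and 9 members matched 12 windows. Osm had no window and was not searched. Both strands were searched for the STAT motif TTCNNNGAA, the AP-1 motif TGANTCA, the kappa B motif of nuclear factor kappa B, TATAAA and the cyclic AMP motif TGACGTCA. Of all 32851 windows of this length, 8.3% held the STAT motif, 7.81% AP-1, 0.411% kappa B, 13.6% TATAAA and 1.79% TGACGTCA. Socs3 was the member with a STAT match, TTCTTAGAA at positions -154 to -146 counted from the start site, whose first base is 1. Il6 held AP-1 at -249 to -243 and kappa B, GGGATTTTCC, at -44 to -35. AP-1 also matched in Lif at -228 to -222, in 1 of the windows of Il11 at -98 to -92, and in Osmr at 4 to 10. The windows of Il6ra, Il6st, Lifr and Il11ra1 held no match to the 5 motifs. The 4 windows below, 5′ to 3′ in the direction of the gene, show the matched letters in capitals; they are a description of sequence, and no binding was measured. Il6 lies at chr5:30012864-30013163 (+), Lif at chr11:4257318-4257617 (+), Osmr at chr15:6874264-6874563 (-) and Socs3 at chr11:117969317-117969616 (-).
Il6: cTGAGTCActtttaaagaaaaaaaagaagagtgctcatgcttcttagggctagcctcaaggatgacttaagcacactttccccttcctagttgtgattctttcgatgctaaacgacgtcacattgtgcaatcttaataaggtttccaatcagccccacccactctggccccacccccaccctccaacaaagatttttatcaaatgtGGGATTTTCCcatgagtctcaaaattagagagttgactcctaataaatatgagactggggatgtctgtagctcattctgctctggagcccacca
Lif: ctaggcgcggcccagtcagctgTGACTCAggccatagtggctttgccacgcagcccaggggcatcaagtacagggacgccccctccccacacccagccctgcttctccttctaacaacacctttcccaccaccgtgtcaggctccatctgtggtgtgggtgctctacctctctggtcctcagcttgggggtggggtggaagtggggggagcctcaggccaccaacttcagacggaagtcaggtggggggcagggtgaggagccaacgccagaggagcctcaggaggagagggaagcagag
Osmr: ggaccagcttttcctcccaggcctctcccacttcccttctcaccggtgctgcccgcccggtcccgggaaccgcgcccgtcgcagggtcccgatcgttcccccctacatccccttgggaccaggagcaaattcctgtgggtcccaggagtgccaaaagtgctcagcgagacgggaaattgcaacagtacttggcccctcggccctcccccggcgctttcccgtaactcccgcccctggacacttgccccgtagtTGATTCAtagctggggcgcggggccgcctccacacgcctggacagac
Socs3: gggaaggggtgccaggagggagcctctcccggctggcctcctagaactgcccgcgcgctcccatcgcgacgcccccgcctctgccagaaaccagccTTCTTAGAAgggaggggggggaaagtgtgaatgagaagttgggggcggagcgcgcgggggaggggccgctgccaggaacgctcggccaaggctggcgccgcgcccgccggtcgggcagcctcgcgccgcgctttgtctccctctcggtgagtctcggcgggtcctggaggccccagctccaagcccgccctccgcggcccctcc

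Il6 encodes interleukin 6, a ligand that can act through membrane-bound or soluble receptor. In bone its level was 27.9, 26.0, 4.30 and 16.5 CPM in LiTra libraries 1 to 4. It was 16.1, 5.84, 5.36 and 5.44 CPM in Li, 0, 0.169, 0.275 and 0.403 CPM in Tra, and 0.142, 0.231, 0.666 and 0.183 CPM in Co. Every ligated bone library was above every library without a ligature. The log2 difference from Co was 5.99 ± 0.92 in LiTra (adjusted p = 0.00086) and 4.80 ± 0.88 in Li (adjusted p = 0.00909). Without Co 3, the highest Co library, these were 6.62 and 5.44. Against Tra, LiTra was higher by 6.43 ± 0.94 (adjusted p = 0.00267), and by 7.08 without Tra 4. LiTra against Li gave 1.19 ± 0.74 (adjusted p = 0.874), and the libraries of the 2 groups overlapped. Limma-voom did not call Il6 in bone for Li against Co or LiTra against Tra (adjusted p up to 0.0957).

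In gingiva Il6 split within the ligated groups. Its level was 20.6, 13.2, 0.971 and 21.1 CPM in LiTra, and 20.6, 25.2, 0.244 and 0.533 CPM in Li. It was 0, 0, 0 and 0.165 CPM in Tra, and 0.0971, 0.0958, 0 and 0.0794 CPM in Co. The low ligated libraries, LiTra 3, Li 3 and Li 4, still lay above all Tra and Co libraries, on 41, 10 and 24 estimated counts against at most 7. The log2 difference from Co was 7.62 ± 1.61 in LiTra (adjusted p = 0.00437) and 7.37 ± 1.60 in Li (adjusted p = 0.0147). Without Co 1 the Li call was lost (adjusted p = 0.0534), and without Li 2 the difference was 6.66. LiTra against Tra gave 8.34 ± 1.69 (adjusted p = 0.0047), but this size rests on the 7 counts of Tra 4 and was 12.2 without it. Limma-voom called Il6 in none of these 3 gingiva comparisons (adjusted p 0.207 to 0.584).

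Lif encodes leukaemia inhibitory factor, which signals through the Lifr and Il6st chains. In bone it stood at 22.9, 34.0, 17.6 and 21.7 CPM in LiTra and 21.3, 15.1, 14.3 and 19.6 CPM in Li. Tra libraries had 7.26, 7.77, 3.72 and 5.77 CPM, and Co libraries 4.83, 8.77, 6.04 and 5.57 CPM. The ligated and unligated bone libraries did not overlap. The log2 difference from Co was 1.93 ± 0.27 in LiTra (adjusted p = 0.000523) and 1.48 ± 0.27 in Li (adjusted p = 0.00841). In gingiva Lif was at 10.7, 11.5, 6.70 and 12.9 CPM in LiTra, and 9.81, 11.9, 2.98 and 4.199 CPM in Li. Tra libraries had 3.15, 3.36, 3.21 and 2.24 CPM there, and Co libraries 3.52, 2.899, 1.89 and 5.42 CPM. All LiTra gingiva libraries exceeded Co, while Li 3 and Li 4 fell within the Co range. LiTra against Co was called at 1.61 ± 0.41 (adjusted p = 0.0116), and Li against Co, at 1.07 ± 0.40, was not (adjusted p = 0.117). Leaving out Li 3 brought the Li comparison to 1.35 with an adjusted p of 0.032, and DESeq2 called it (adjusted p = 0.0488).

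Il11 encodes interleukin 11, a ligand known for its part in osteoclast formation and in fibroblast activation. In bone its level was 4.63, 4.96, 1.07 and 1.68 CPM in LiTra. The other bone groups were low, with 0.610, 0.0865, 0.415 and 0.198 CPM in Li, 0.267, 0.339, 0.367 and 0.497 CPM in Tra, and 0.284, 0.301, 0.296 and 0.0914 CPM in Co. Every LiTra library was above every other bone library, and Li, Tra and Co overlapped. LiTra was higher than Co by 3.65 ± 0.66 (adjusted p = 0.002) and higher than Tra by 3.05 ± 0.64 (adjusted p = 0.013). Li against Co gave 0.43 ± 0.61 (adjusted p = 0.776).

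What resin adds to a ligature is the comparison of LiTra with Li. In bone the Il11 difference was 3.22 ± 0.64 (adjusted p = 0.546), so it did not pass edgeR's test. For this comparison edgeR called 0 members and 0% of all genes, and at an unadjusted p under 0.05 it was 1 member, Il11, and 6.38% of all genes. DESeq2 called Il11 (adjusted p = 0.000336) and limma-voom called no member. On simulated counts DESeq2 made more false calls. Over the alternative settings 0 to 106 of all genes were called in this comparison. Il11 was the single member whose LiTra and Li bone libraries did not overlap, as was the case for 4.65% of all genes. The interaction, the ligature effect with resin minus that without, was 2.62 ± 0.87 for Il11 in bone (adjusted p = 1). Interaction calls were 0 of the 10 members in each tissue by every tool, with 0% of all genes called by edgeR, and at an unadjusted p under 0.05 they were 1 member in bone and 0 in gingiva, beside 3.04% and 11.4% of all genes.

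In gingiva Il11 stood at 2.58, 2.87, 1.07 and 2.27 CPM in LiTra and at 3.92, 5.54, 0.3905 and 0.800 CPM in Li. Tra gingiva had 0.739, 0.431, 1.02 and 0.612 CPM, and Co gingiva 0.389, 0.288, 0.671 and 0.450 CPM. LiTra lay above Co in all 4 libraries, whereas Li 3 was inside the Co range. LiTra against Co gave 2.28 ± 0.66 (adjusted p = 0.0227), and Li against Co gave 2.56 ± 0.67 (adjusted p = 0.032). The Li call was lost without any 1 of Li 1, Li 2 and the 4 Co libraries (adjusted p 0.0605 to 0.127), with a difference of 1.91 without Li 2. Il11 was also not called for Li against Co by limma-voom (adjusted p = 0.353), with no filter (0.0529) or with only the groups compared (0.115). The LiTra call was lost without any 1 of LiTra 2, Co 1, Co 2 and Co 4 (adjusted p 0.0511 to 0.0608). LiTra against Tra, at 1.65 ± 0.64, was not called (adjusted p = 0.0866), but was without Li 3 (adjusted p = 0.0363), by DESeq2 (0.0396) and with only the groups compared (0.0185). Between LiTra and Li the Il11 difference in gingiva was -0.28 ± 0.62. EdgeR called 0 members for that gingiva comparison, where it called 0.0844% of all genes, and Osmr was the 1 member with an unadjusted p under 0.05, beside 18.5% of all genes. DESeq2 and limma-voom called 0 members there too.

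Osm encodes oncostatin M, a ligand made mainly by myeloid cells that acts on stromal cells through Osmr. In bone Osm was at 10.98, 12.4, 5.27 and 7.92 CPM in LiTra and 7.17, 6.16, 6.93 and 2.89 CPM in Li. Tra bone had 4.90, 2.67, 1.28 and 4.35 CPM, and Co bone 4.31, 3.90, 3.74 and 5.21 CPM. LiTra 3 exceeded the highest Co library only narrowly, and Li 4 was below every Co library. LiTra against Co was not called at 1.09 ± 0.39 (adjusted p = 0.0716), but was by DESeq2 (0.0226), by limma-voom (0.0263), with only the groups compared (0.0256) and without Tra 3 (0.0258). LiTra against Tra was called at 1.46 ± 0.40 (adjusted p = 0.0445). That call was lost in 12 of 16 fits that each left out 1 library, all but LiTra 3, Li 4, Tra 1 and Tra 3 (adjusted p 0.0532 to 0.142). It was also lost with no filter (0.0759), with only the groups compared (0.14) and without the 3 bone libraries that stood apart (0.091).

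In gingiva Osm reached 33.7, 10.1, 7.91 and 29.7 CPM in LiTra, and 22.1, 31.8, 3.51 and 3.60 CPM in Li. Tra gingiva had 3.55, 9.03, 0.543 and 2.54 CPM, and Co gingiva 0.923, 3.57, 1.73 and 1.67 CPM. Every LiTra library was above every Co library, while Li 3 and Li 4 were level with the highest Co library. LiTra against Co was called at 3.36 ± 0.88 (adjusted p = 0.0137). Li against Co, at 2.95 ± 0.87, missed the threshold (adjusted p = 0.0513) and passed without any 1 of Li 3, Li 4, Tra 2 and Tra 3 (adjusted p 0.0259 to 0.0425), and by DESeq2 (0.00707). LiTra against Tra gave 2.38 ± 0.84 (adjusted p = 0.0606), and passed without Li 3 or Tra 2 (adjusted p 0.027 to 0.0491), by DESeq2 (0.0238) and by limma-voom (0.0344).

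Neutrophil markers were high in the gingiva libraries with the most Osm, but not in Tra 2. The summed level of 10 neutrophil markers was 8273, 3215, 2088 and 8998 CPM in LiTra, 7047, 5695, 944 and 846 CPM in Li, 121 to 540 CPM in Tra and 159 to 865 CPM in Co. Tra 2, with more Osm than LiTra 3 or any Co library, had a sum of 540 CPM, below Co 2 at 865 CPM. Of the 10 markers 4 rose in LiTra against Co and 2 in Li against Co, and up to 2 of them had no counts in a Tra library. The share of all genes called higher was 11.4% in LiTra gingiva and 5.19% in Li gingiva. Of 10 monocyte and macrophage markers 10 rose in LiTra and 8 in Li against Co. Their sums were 799 to 1175 CPM in LiTra, 588 to 1434 CPM in Li, 261 to 724 CPM in Tra and 228 to 289 CPM in Co. The part of these cells in the rise of the gingival ligands was not tested, and in bulk tissue more cells of a type and more RNA per cell cannot be told apart.

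In bone the neutrophil marker sums of LiTra lay below those of Co. The sum spanned 1331 to 4135 CPM for LiTra, 1737 to 7665 CPM for Li libraries, 1014 to 5914 CPM for Tra libraries and 6174 to 7968 CPM for Co, with 2 of 10 markers lower in LiTra against Co and 0 higher. Of the 8 erythroid markers all 8 were lower in LiTra bone than in Co bone, with sums of 1384 to 4829 CPM in LiTra against 18496 to 36762 CPM in Co. In that comparison 16.9% of all genes were called either way. Of 8 osteoclast markers 6 were higher in LiTra bone and 5 in Li bone against Co, beside 8.29% and 2.66% of all genes. In gingiva all 8 of these osteoclast markers were higher in LiTra and in Li against Co, beside 11.4% and 5.19% of all genes. What these shifts contribute to the bone results was not tested.

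**Figure D2:**
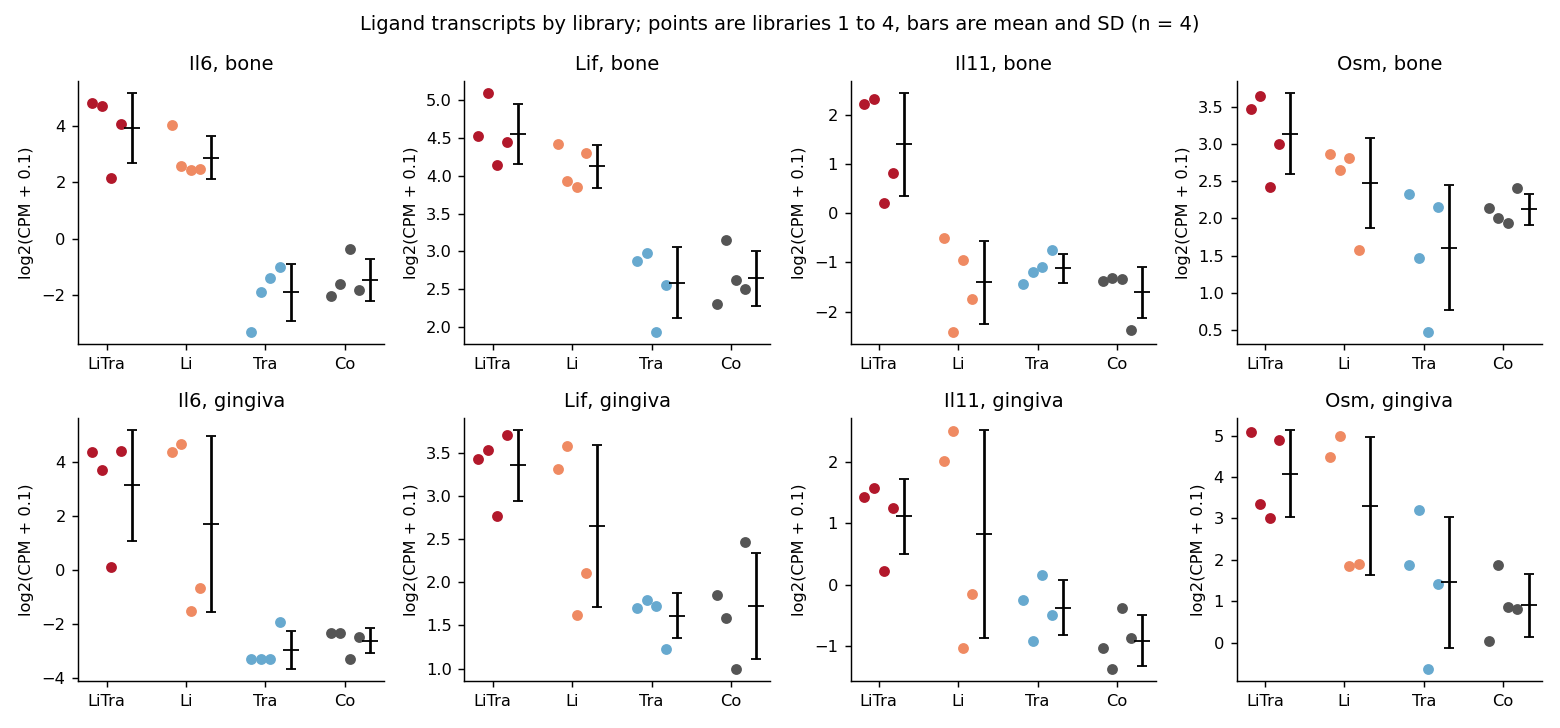
Ligand levels in each library as log2(CPM + 0.1), by tissue (rows) and gene (columns), with groups LiTra, Li, Tra and Co; bars give the mean and SD of 4 libraries. In gingiva LiTra 3, Li 3 and Li 4 sit low for Il6, and in bone Il11 is high in LiTra alone.

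**Figure D3:**
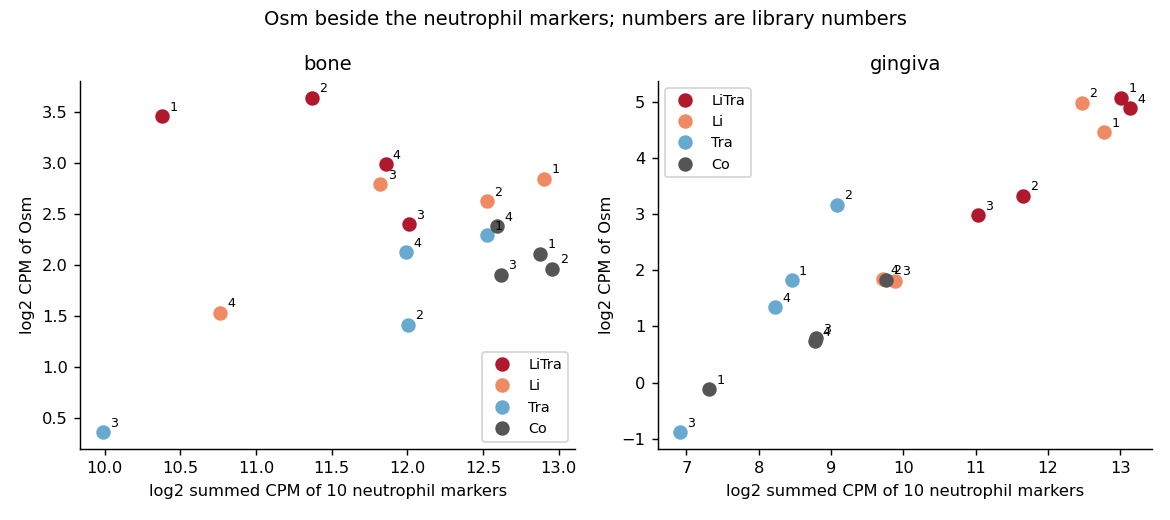
Log2 CPM of Osm against the log2 summed CPM of 10 neutrophil markers, 1 point per library with its number, in bone (left) and gingiva (right). In gingiva the libraries with the highest marker sums, LiTra 1 and 4 and Li 1 and 2, hold the 4 highest Osm levels, and in bone LiTra 1 and 2 have high Osm at sums below those of Co.

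The makeup of the ligand transcripts was set out per kilobase of exon, the scale on which genes can be compared. In bone the summed level of the 4 ligands was 8.65 to 26.4 CPM per kb for LiTra, 8.12 to 14.99 for Li, 1.71 to 3.95 for Tra and 3.20 to 3.97 for Co. Il6 made up 20.5% to 48.3% of that sum in LiTra bone and 25.3% to 44.3% in Li bone, against 1.83% to 7.96% in Co bone. Osm made up 20.3% to 26.8% in LiTra bone and 43.2% to 62.1% in Co bone. In gingiva the sum was 5.93 to 27.0 CPM per kb for LiTra, 2.52 to 29.8 for Li, 1.47 to 4.95 for Tra and 1.44 to 2.42 for Co. Osm was the largest share in 3 of 4 LiTra gingiva libraries, at 50.6% to 58.7%, and Il6 in the other, LiTra 2, at 39.1%. The Osm share overlapped with that of Tra gingiva, 16.3% to 80.2%, and of Co gingiva, 28.2% to 65.1%. In Li gingiva Il6 made up 38.0% and 34.9% in libraries 1 and 2 but 3.99% and 6.96% in libraries 3 and 4.

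**Figure D4:**
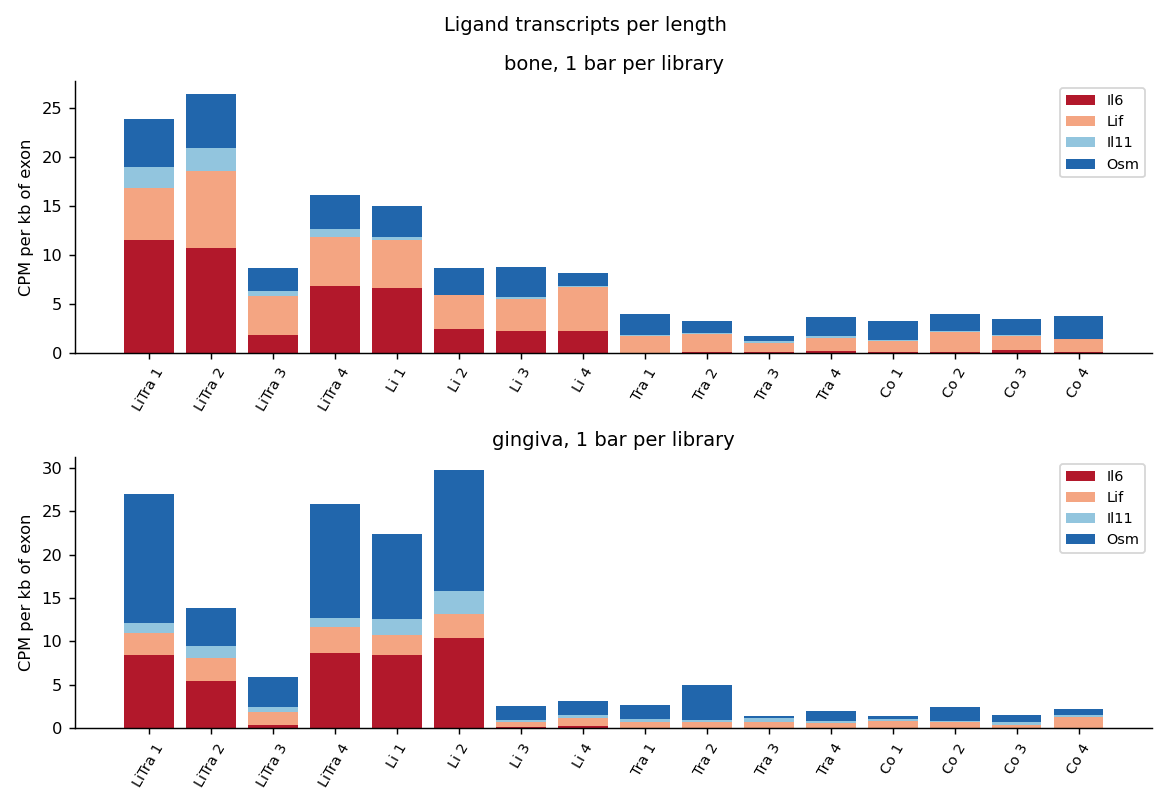
Levels of Il6, Lif, Il11 and Osm stacked in each library, in CPM per kilobase of exon, for bone (top) and gingiva (bottom). Ligated bone libraries are mixed from Il6, Lif and Osm, and Osm and Il6 fill most of the tall gingiva bars. Li 3 and Li 4 of gingiva are low, above all Co bars but within the range of Tra.

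Osmr, the chain that pairs with Il6st to bind oncostatin M, was the receptor gene that rose in both tissues. In bone it had 55.1, 69.3, 41.8 and 74.5 CPM in LiTra and 48.1, 43.3, 49.5 and 53.3 CPM in Li. Tra bone had 32.7, 34.9, 23.7 and 30.8 CPM, and Co bone 21.7, 27.0, 22.1 and 21.7 CPM. Ligated and unligated bone libraries did not overlap, and Tra overlapped with Co. LiTra was higher than Co by 1.38 ± 0.17 (adjusted p = 0.000306), Li by 1.07 ± 0.17 (adjusted p = 0.00437), and Tra gave 0.40 ± 0.16 (adjusted p = 0.481). In gingiva Osmr had 124, 95.9, 63.2 and 124 CPM in LiTra and 86.9, 87.2, 51.0 and 51.1 CPM in Li. Tra gingiva had 31.4, 40.4, 35.5 and 33.7 CPM, and Co gingiva 24.7, 27.6, 28.0 and 29.6 CPM. Here even the low ligated libraries were above all Tra and Co libraries, and each Tra library was above each Co library. The differences from Co were 1.89 ± 0.22 in LiTra (adjusted p = 0.000222), 1.33 ± 0.22 in Li (adjusted p = 0.00384) and 0.36 ± 0.21 in Tra, which was not called. LiTra minus Li was 0.56 ± 0.21 in gingiva (adjusted p = 0.173).

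Il6st, the signalling chain shared by the whole family, rose in gingiva by a small amount. It had 256, 248, 249.3 and 287 CPM in LiTra gingiva and 250, 373, 250 and 218 CPM in Li gingiva. Tra gingiva had 199 to 205 CPM and Co gingiva 184 to 202 CPM, so each ligated library was above each Co library. The differences from Co were 0.42 ± 0.13 in LiTra (adjusted p = 0.0267) and 0.49 ± 0.13 in Li (adjusted p = 0.0315). The LiTra call was lost without any 1 of LiTra 4, Co 1, Co 3 and Co 4 (adjusted p 0.0562 to 0.081), and the Li call without any 1 of Li 1, Li 2 and the 4 Co libraries (adjusted p 0.0521 to 0.0809), with no filter (0.0511) and with only the groups compared (0.124). Against Tra, LiTra gave 0.36 ± 0.13 (adjusted p = 0.0593) and passed without Li 2 or Li 4 (adjusted p 0.00423 to 0.039), by DESeq2 (0.0289) and by limma-voom (0.014). In bone Il6st ranged from 274 to 371 CPM for LiTra, 257 to 383 CPM for Li, 204 to 326 CPM for Tra and 267 to 348 CPM for Co, and no comparison of treatments passed.

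Il6ra, the chain that recognises interleukin 6, was called by edgeR in no comparison of treatments. In bone it had 30.1, 22.2, 30.7 and 35.2 CPM in LiTra, below the 44.6, 56.3, 45.6 and 50.5 CPM of Co without overlap. The difference was -0.74 ± 0.26 (adjusted p = 0.0712), and it passed as lower by DESeq2 (0.0283), by limma-voom (0.00513), with only the groups compared (0.01), without Li 4 or Tra 3 (0.022 to 0.0479) and without the 3 bone libraries that stood apart (0.0448). Li bone spanned 23.3 to 51.7 CPM and Tra bone 18.4 to 45.1 CPM. In gingiva LiTra had 26.8 to 32.5 CPM and Co 20.8 to 29.8 CPM (0.24 ± 0.21), and Li library 2 stood alone at 58.2 CPM.

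Lifr and Il11ra1 passed in no comparison of treatments either. Lifr, the chain for leukaemia inhibitory factor, differed from Co by 0.26 ± 0.17 in LiTra bone, 0.16 ± 0.17 in Li bone, -0.06 ± 0.28 in LiTra gingiva and 0.01 ± 0.28 in Li gingiva. Its level was 282 to 351 CPM in LiTra bone against 230 to 351 CPM in Co bone. In gingiva LiTra 1 was low at 16.4 CPM, and the other LiTra libraries had 54.5 to 61.0 CPM. Il11ra1, the chain for interleukin 11, had 56.7 to 80.0 CPM in LiTra bone and 40.6 to 63.8 CPM in Co bone (0.37 ± 0.21). In gingiva it had 42.5 to 52.8 CPM in LiTra and 44.9 to 61.6 CPM in Co (-0.19 ± 0.13). Il11ra1 and its near-identical copy Il11ra2 may share reads, so both are uncertain. Il11 thus rose in LiTra bone while the difference of its receptor gene did not pass.

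Socs3, the feedback inhibitor that STAT3 induces, rose in every ligated group. In bone it had 91.7, 118, 59.6 and 98.7 CPM in LiTra and 99.2, 56.5, 69.7 and 66.7 CPM in Li. Tra bone had 28.1, 25.2, 16.7 and 27.0 CPM, and Co bone 22.4, 31.5, 14.6 and 26.2 CPM. The lowest ligated library exceeded the highest unligated one. LiTra was higher than Co by 1.96 ± 0.26 (adjusted p = 0.000451) and Li by 1.62 ± 0.26 (adjusted p = 0.00522). In gingiva Socs3 had 162, 86.3, 64.3 and 163 CPM in LiTra and 158, 184, 49.5 and 72.4 CPM in Li. Tra gingiva had 14.7, 22.6, 15.7 and 19.4 CPM, and Co gingiva 15.9, 33.9, 21.9 and 23.6 CPM. There was again no overlap, though LiTra 3, Li 3 and Li 4 were once more the lowest ligated libraries. The differences from Co were 2.32 ± 0.41 in LiTra (adjusted p = 0.00165) and 2.29 ± 0.41 in Li (adjusted p = 0.00556). Tra against Co gave 0.04 ± 0.26 in bone and -0.39 ± 0.39 in gingiva.

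**Figure D5:**
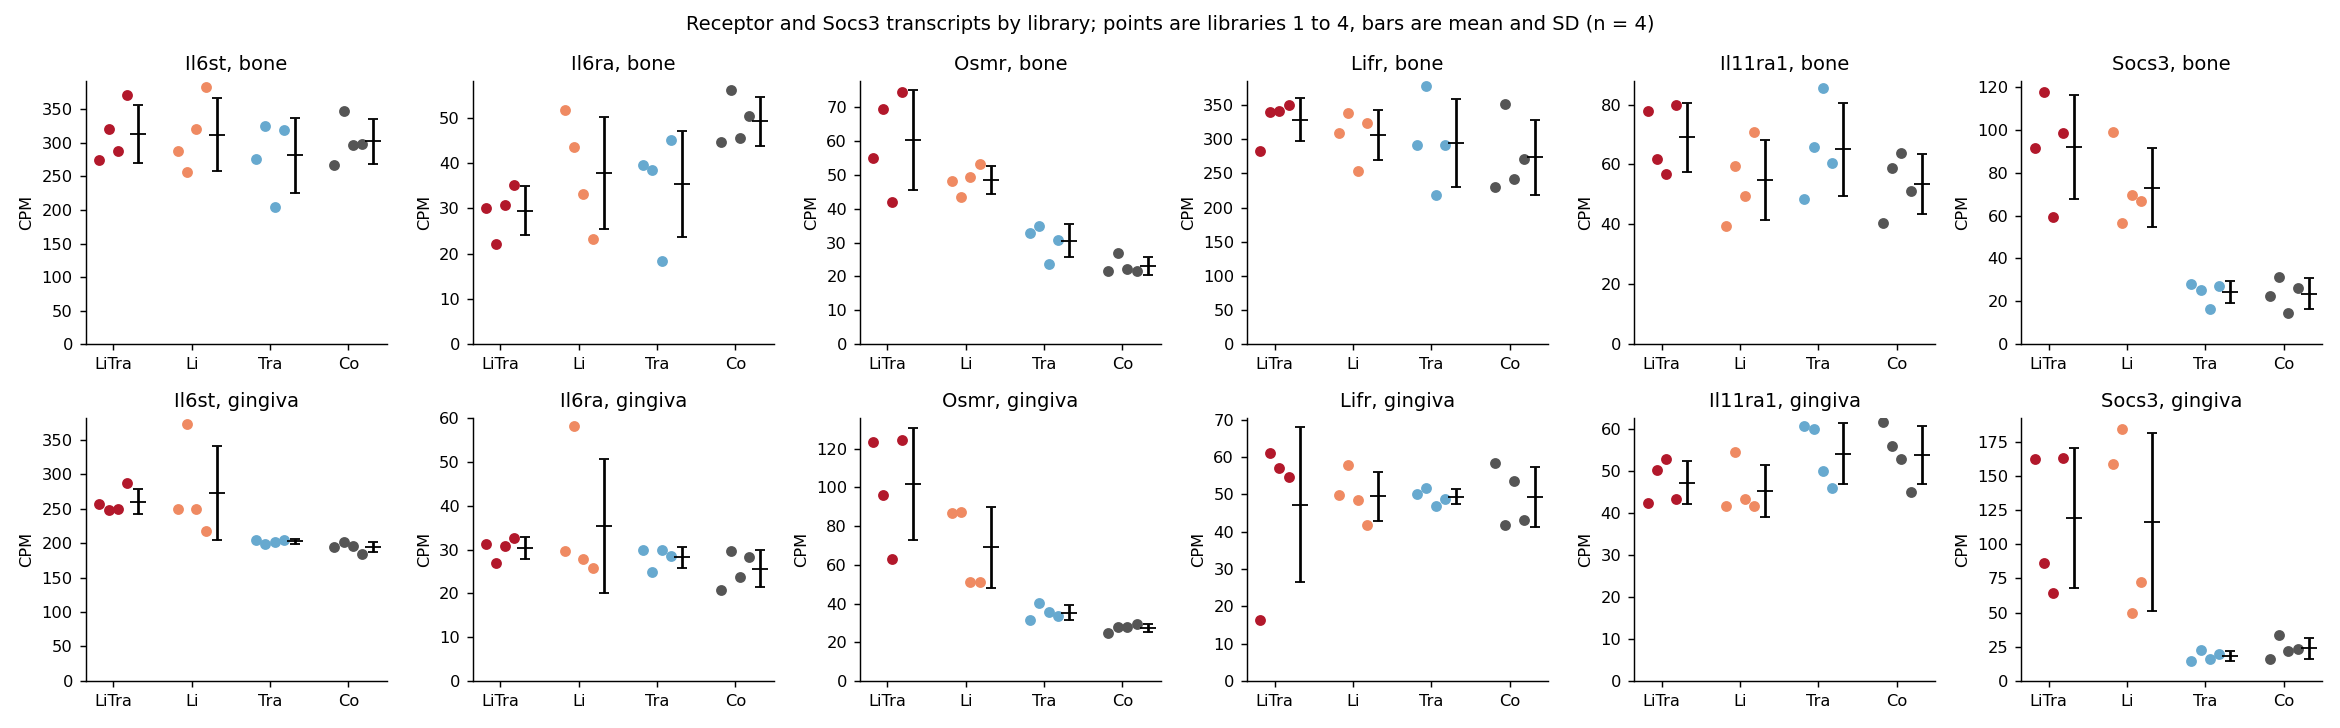
Levels in CPM of the 5 receptor genes and Socs3 in each library of bone (top) and gingiva (bottom), by group LiTra, Li, Tra and Co; bars give the mean and SD of 4 libraries. Osmr and Socs3 are higher in all ligated libraries, Lifr is several-fold higher in bone than in gingiva, and Il6ra is lower in LiTra bone than in Co bone without overlap.

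Of 22 genes listed as STAT3 targets, 10 rose and 0 fell in LiTra bone against Co and 7 rose and 0 fell in Li bone. Of all genes 8.29% were called higher and 16.9% either way in LiTra bone, and 2.66% and 3.51% in Li bone. The median log2 difference over the 22 was 0.60 in LiTra bone and 0.53 in Li bone, beside -0.01 and -0.02 over all genes. Without the 3 bone libraries that stood apart, 10 rose and 1 fell in LiTra and 8 rose in Li. Then 22.4% and 8.22% of all genes were called either way. In gingiva 13 rose and 2 fell in LiTra, and 13 rose and 0 fell in Li, with medians of 1.18 and 1.24 beside -0.01 and 0.00 over all genes. There 11.4% of all genes were called higher and 22.9% either way in LiTra, and 5.19% and 7.49% in Li. Against Tra, LiTra was higher for 9 in bone and for 14 in gingiva, where 1 was lower. For LiTra against Tra 3.07% of all genes were called higher in bone and 9.36% in gingiva. Resin alone called 0 of the 22 in either tissue, where 0% of all genes were called. Saa3, an acute-phase protein gene, led in bone at 8.48 ± 0.65 in LiTra and 7.35 ± 0.62 in Li, and in gingiva had 9.22 ± 1.30 and 8.94 ± 1.28. Timp1, a metalloproteinase inhibitor gene, rose by 2.70 ± 0.26 in LiTra bone and 4.51 ± 0.57 in LiTra gingiva (adjusted p of these 6 values 1.8e-05 to 0.00186). Junb, an AP-1 subunit gene, rose by 1.09 ± 0.15 in both LiTra bone and Li bone. Ccnd1 and Myc, which drive cell division, were the 2 listed genes that fell in LiTra gingiva, by 1.02 ± 0.19 and 0.64 ± 0.17 on the log2 scale; they were named because the count is small.

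Of 10 kinases, STATs and shedding proteases, 5 rose in LiTra gingiva and 4 in Li gingiva against Co, 0 fell, and the others did not pass. Among all genes 11.4% were called higher and 22.9% either way in LiTra gingiva, and 5.19% and 7.49% in Li gingiva. Adam17, a protease that sheds the interleukin 6 receptor, rose by 0.60 ± 0.09 in LiTra gingiva (adjusted p = 0.000845) and 0.44 ± 0.09 in Li gingiva (adjusted p = 0.0131). Adam10, another such protease, rose by 0.57 ± 0.10 and Jak1 by 0.65 ± 0.11 in LiTra gingiva. Stat3 rose by 0.80 ± 0.19 in Li gingiva (adjusted p = 0.0243). In bone 1 of the 10, Adam17 at 0.49 ± 0.15, rose in LiTra against Co and 2 fell, Stat5b at -0.72 ± 0.11 and Stat5a at -0.61 ± 0.15, while 0 passed in Li. The share of all genes called either way was 16.9% in LiTra bone and 3.51% in Li bone.

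Calls among other genes of the family and of its feedback stand beside the share of all genes called either way against Co. That share was 16.9% in LiTra bone, 3.51% in Li bone, 22.9% in LiTra gingiva and 7.49% in Li gingiva. Of 8 other ligand genes, 7 were tested in bone and 6 in gingiva, and none rose against Co. Ebi3, a subunit shared by interleukins 27 and 35, fell by 1.66 ± 0.43 in LiTra bone (adjusted p = 0.0176). Of 4 other receptor genes, Cntfr, the ciliary neurotrophic factor receptor, fell by 2.33 ± 0.30 in LiTra gingiva (adjusted p = 0.000301) and by 1.43 ± 0.29 in Li gingiva (adjusted p = 0.0104). Il27ra rose in LiTra gingiva at 1.10 ± 0.37 (adjusted p = 0.046). Of 8 other feedback genes, Socs2 rose in LiTra bone at 0.63 ± 0.12 (adjusted p = 0.00255), and Ptpn6, a phosphatase gene of blood cells, rose in gingiva at 1.16 ± 0.27 in LiTra and 1.09 ± 0.27 in Li. Pias3 and Cish fell in LiTra gingiva, by 0.47 ± 0.13 and 0.58 ± 0.18.

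Untreated bone and gingiva were compared in the Co libraries. Of the 10 members 4 were higher in Co bone than in Co gingiva and 0 were lower, where 27.2% of 22559 genes were called higher and 53.6% either way, a share near that of the members. Lifr was at 273 ± 55.9 CPM in bone against 49.4 ± 8.17 CPM in gingiva (SD, n = 4 each, scaled over all 32 libraries), a log2 difference of 2.46 ± 0.25 (adjusted p = 7.65e-09). Il6ra was higher in bone by 0.93 ± 0.25 (adjusted p = 0.00299), Il6st by 0.63 ± 0.15 (adjusted p = 0.000962) and Lif by 0.87 ± 0.35 (adjusted p = 0.0402). The Lif call was lost without any 1 of bone Co 2 and gingiva Co 1, Co 2 and Co 3 (adjusted p 0.0679 to 0.14), with no filter (0.0586) and with only the groups compared (0.0587). Socs3 was level, with a difference of -0.01 ± 0.35.

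Per kilobase of exon, Il6st and Lifr led in Co bone at 27.2 ± 3.01 and 25.4 ± 5.07 CPM per kb, and they did not differ beyond their spread. Il11ra1 followed at 12.0 ± 2.25, Socs3 at 8.18 ± 2.45 and Il6ra at 5.70 ± 0.619. Osmr at 1.91 ± 0.215, Osm at 1.89 ± 0.290 and Lif at 1.45 ± 0.395 lay within each other's spread, and Il6 (0.126 ± 0.1002) and Il11 (0.117 ± 0.0487) were last. In Co gingiva the order was Il6st at 17.5 ± 0.665, Il11ra1 at 12.0 ± 1.55, Socs3 at 8.23 ± 2.59, Lifr at 4.57 ± 0.749, Il6ra at 2.97 ± 0.478 and Osmr at 2.27 ± 0.169. Osm (0.868 ± 0.496) and Lif (0.789 ± 0.342) did not differ beyond their spread, and Il11 (0.216 ± 0.0780) and Il6 (0.0280 ± 0.0190) were lowest. In LiTra the order changed, with Socs3 first at 31.8 ± 8.36 in bone and 41.2 ± 17.7 in gingiva, though it was within the spread of Lifr (30.5 ± 2.898) and Il6st (28.2 ± 3.91) in bone, and in gingiva Il6st followed at 23.5 ± 1.66, above Socs3 in LiTra 3. Il6 reached 7.70 ± 4.45 in LiTra bone, level with Lif at 5.53 ± 1.62 and Osmr at 4.97 ± 1.22. In LiTra gingiva Osm stood at 8.96 ± 5.83, Osmr at 8.40 ± 2.39 and Il6 at 5.75 ± 3.86, all within each other's spread (SD, n = 4 each).

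The response itself was compared between the tissues as the bone change minus the gingiva change. For Li against Co edgeR called 0 of the 10 members, where 2.04% of all genes were called, and for LiTra against Co 0 of 10, where 12.3% were called. At an unadjusted p under 0.05 there were 3 members in each, beside 17.3% of all genes for Li and 25.5% for LiTra. Osm had the lowest p for Li, with a change smaller in bone by 2.51 ± 0.96 on the log2 scale, written as -2.51 in bone minus gingiva (adjusted p = 0.162). Il11 was at -2.12 ± 0.93 for Li (adjusted p = 0.228) and at 1.38 ± 0.91 for LiTra (adjusted p = 0.368). Il6 was at -2.53 ± 1.70 for Li and -1.59 ± 1.68 for LiTra. Il6ra was at -0.97 ± 0.35 for LiTra (adjusted p = 0.074), a difference in change and not in level. It passed, with the change lower in bone, without bone Tra 3 or gingiva Li 2 (adjusted p 0.0323 to 0.0399). Il6ra also passed by DESeq2 (0.0397), by limma-voom (0.00326) and with the replicate block (0.0407). With only the groups compared it passed at 0.00366, and without the 3 bone libraries that stood apart at 0.0364. DESeq2 and limma-voom called 0 members for Li, and 1 and 2 members for LiTra.

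Of the 45 pairs of members, 32 had a higher correlation of log2 levels within groups in gingiva and 13 in bone. This describes 16 libraries per tissue that share scaling and depth, and the difference was not tested. With group means removed, Il6 correlated with Socs3 at r = 0.83 in gingiva and 0.09 in bone, with Osmr at 0.84 and 0.16, and with Osm at 0.65 and 0.05. Among ligated gingiva libraries, LiTra 3, Li 3 and Li 4 were the lowest for Il6, Osm, Osmr and Socs3. What these libraries add to the gingiva r values was not tested. Osmr and Socs3 correlated within groups in both tissues, at 0.90 in gingiva and 0.70 in bone. Il6 and Il11 did so at 0.81 in gingiva and 0.62 in bone. Other pairs were higher in bone, with Lif and Lifr at 0.68 in bone and 0.03 in gingiva, and Il6st and Osmr at 0.77 in bone and 0.52 in gingiva.

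Among 14341 genes, likeness in pattern was ranked by the lower of the Pearson correlations of log2 CPM over the 16 bone and the 16 gingiva libraries. Most like Il6 were Saa3 (r = 0.93 in bone, 0.94 in gingiva), Mmp3 (0.97 and 0.92), Ccl2 (0.95 and 0.91) and Dio2 (0.90 and 0.92). Most like Osm were Clec4d (0.95 and 0.96), Acod1 (0.93 and 0.94), Nlrp3 (0.92 and 0.96) and Cd80 (0.90 and 0.89). Most like Socs3 were Saa3 (0.97 and 0.96), Sele (0.96 and 0.97), Tubb6 (0.97 and 0.95) and Selp (0.96 and 0.95). Il11 had weaker matches, led by Acsl4 (0.83 and 0.82), Cd14 (0.81 and 0.83), Ankib1 (0.85 and 0.81) and Rnf125 (0.79 and 0.80). These r values include the differences between groups that the libraries share.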

How the data were processed

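Poly(A)-selected RNA of 32 libraries (4 per group in bone and in gingiva) was read from 1 table per tissue of estimated counts per gene, as the authors deposited them, all whole numbers. Per the submitters' processing notes the tools, in no stated order, included StringTie 2.1.7, Trimmomatic 0.39, DESeq2 1.32.0, HISAT2 2.2.1 and FastQC 0.11.9, and the build was GRCm39; strand use in counting is not given in the sources used here. Table columns marked CR were read as the composite resin group, Tra.

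Each tissue was fitted with all 16 libraries by edgeR 4.0.16 in R 4.3.3 (quasi-likelihood test, two-sided, TMM scaling, filterByExpr with a minimum count of 10 and total of 15), and bone was set against gingiva in a fit of all 32. The Benjamini-Hochberg adjusted p threshold was 0.05 over all genes tested. The procedure was tested on simulated data. DESeq2, used as an alternative only, made more false calls on those simulated counts and was left out of the check on false calls. Levels per kilobase used exon lengths of GENCODE on GRCm38. Alternatives were DESeq2 1.42.0, limma 3.58.1 (voom with sample weights), other scalings and filters, only the groups compared, a replicate block, and leaving out libraries. Leaving out bone LiTra 1, Tra 3 and Co 3 together was chosen after seeing the data.

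The members and lists were chosen with earlier results of these data known. The 10 members are named in each comparison, up to 4 genes of each other list with the smallest p where any passed, and the 4 genes most alike in pattern for Il6, Il11, Osm and Socs3. A symbol was given for 52083 of 55359 identifiers, and those without one held at most 0.409% of a library's counts. Within-group library pairs all differed by more than sampling noise (lowest chi-square per degree of freedom 35.6 over 48 pairs). A result for 1 gene of the other ligand list is not reported here.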

Additional observations from a re-analysis of the deposited data

Results flagged for a closer look

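Of 80 groups of 4 libraries (10 genes, 4 treatments, 2 tissues), 9 had a library far from the other 3 by Dixon's gap test, and chance gives about 1 in 20. For Il6 these were Li 1 of bone, high at 16.1 CPM against 5.36 to 5.84 CPM, Co 3 of bone, high at 0.666 CPM against 0.142 to 0.231 CPM, and Tra 4 of gingiva, at 0.165 CPM where the others had 0. Il11 was low in Co 4 of bone, at 0.0914 CPM against 0.284 to 0.301 CPM. Lifr was low in LiTra 1 of both tissues, at 282.4 CPM in bone against 340 to 351 CPM and at 16.4 CPM in gingiva against 54.5 to 61.0 CPM. Li 2 of gingiva was high for Il6ra, at 58.2 CPM against 25.8 to 29.8 CPM, and for Il11ra1, at 54.6 CPM against 41.6 to 43.3 CPM. Osmr was high in Co 2 of bone, at 27.0 CPM against 21.7 to 22.1 CPM.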

How the results depend on the processing

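No value of the 10 genes changed direction where it was called. With library totals as the only scaling, members called fell to 1 in each bone comparison of LiTra (against Tra, against Co) and of Li against Co, and to 2 for Co bone against Co gingiva. This scaling moved the median log2 difference of all genes from -0.0185 to 0.131 for bone Li against Co and from -0.0148 to 0.131 for gingiva LiTra against Tra. For gingiva Li against Co, 5 members were called, against 3 with no filter, 3 by limma-voom, 2 with only the groups compared (Il6 was not tested there) and 2 to 7 when 1 library was left out. DESeq2 called 1 member for bone LiTra against Li and 7 for gingiva LiTra against Tra. For the LiTra effect in bone against gingiva, 0 members were called, against 1 by DESeq2, 2 by limma-voom, 1 with the replicate block, 2 with only the groups compared, 1 without the 3 bone libraries and 0 to 1 when 1 library was left out. Calls among all genes ranged from 0 to 106 for bone LiTra against Li over the alternative settings. They ranged from 2912 to 4929 for gingiva LiTra against Tra and from 3708 to 5817 for gingiva LiTra against Co. For the LiTra effect in bone against gingiva they ranged from 17 to 5003. Whether the counts of members follow these totals was not tested, nor was the cause of these changes. Over all genes, calls ranged from 5 to 1904 for bone Li against Co, 12 to 6758 for bone LiTra against Co, 5 to 3299 for bone LiTra against Tra, 407 to 2755 for gingiva Li against Co and 0 to 1413 for gingiva LiTra against Li. Correlations of deviations from group means exceeded 0.1 in 5 of 24 same-number pairs in bone, beside 27 of 72 different-number pairs. In gingiva they did so in 4 of 24 and 10 of 72, and across tissues in 3 of 16 same-number pairs. These counts cannot show whether equal numbers mark 1 animal. With the replicate block, Li against Co gave 4 members in each tissue, and LiTra against Co gave 5 in bone and 7 in gingiva; the block lost Osm in bone LiTra against Tra (adjusted p = 0.0574) and Il11 in gingiva Li against Co (adjusted p = 0.0922), and gained Osm in gingiva LiTra against Tra (adjusted p = 0.0175). Il6 in unligated gingiva rests on at most 7 counts per library, so its fold changes are imprecise.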

Other observations

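Against Co, 16.9% of all genes were called either way in LiTra bone, 3.51% in Li bone, 22.9% in LiTra gingiva and 7.49% in Li gingiva. Those called higher were 8.29%, 2.66%, 11.4% and 5.19% in the same order. Of 8 B and plasma cell markers, 7 were lower and 1 was higher in LiTra bone against Co, and 5 were lower and 1 was higher in Li bone. Of 8 T and NK cell markers, 6 were lower in LiTra bone and 0 passed in Li bone. In gingiva, where 6 of the 8 B and plasma cell markers were tested, neither list had a member that passed in LiTra or Li against Co. Of 8 endothelial markers 6 were higher and 1 was lower in LiTra gingiva, and 5 were higher in Li gingiva. Of 10 fibroblast markers 3 were higher in LiTra gingiva and 1 in LiTra bone, the bone count being near the share of all genes called higher there. Whether these cells bear on the levels of the interleukin 6 family was not tested.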
